A study of Mus musculus with 40 samples.

Results

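App, its paralogs Aplp1 and Aplp2, and 6 genes for the proteases that cut the App protein were followed across head injuries in the cortex of 3xTg-AD mice. The 9 genes were taken by symbol from the mouse rows of the deposited count table, which lists 55539 features, of which 55536 are mouse genes. Each symbol matched a single row, and all 9 genes passed the filter on low counts that left 15224 features. None of the 9 was called in any of the main comparisons between injury and time groups, and across samples they varied in opposed blocks, along with a measure of transcript length that differed between libraries.

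App is a membrane protein of neurons and other cells. Adam10, the main α-secretase of neurons, cuts it inside the amyloid-beta stretch, whereas Bace1, the β-secretase, cuts at the start of that stretch and leaves a stub from which γ-secretase releases amyloid-beta. γ-secretase is a complex of a catalytic subunit such as Psen2, the docking subunit nicastrin (Ncstn), the scaffold Aph1 and the small activating subunit Psenen (also called Pen-2), and it also cuts Notch receptors and many other membrane stubs. Aplp1 and Aplp2 are cut by the same proteases but hold no amyloid-beta stretch.

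All groups were female 3xTg-AD mice on a C57BL/6J background, aged 2–4 months. They carry human APP and MAPT transgenes under the neuronal Thy1 promoter, so that every control also has the transgenes. A closed-head injury (CHI) was a weight dropped on the intact skull under isoflurane, given once daily for 1, 2, 3, 4 or 5 days (1xCHI to 5xCHI). Sham-injured mice had the anesthesia without the drop, and sham-injured mice with different numbers of exposures formed a single group. The left somatomotor cortex was taken 30 min or 4 h after the last of 1, 3 or 5 injuries, and 24 h after the last injury for every number of injuries. The 12 groups were sham (samples 6, 20, 35 and 39), 1xCHI at 30 min (13, 14 and 27), 4 h (15, 16 and 36) and 24 h (17, 18, 26 and 28), 2xCHI at 24 h (19, 21 and 29), 3xCHI at 30 min (4, 5 and 22), 4 h (1 and 3) and 24 h (2, 23, 37 and 38), 4xCHI at 24 h (24, 25 and 40), and 5xCHI at 30 min (7, 8 and 31), 4 h (9, 10 and 32) and 24 h (11, 12, 33 and 34). Sample 30 (3xCHI at 4 h) was left out because the submitters found it to be an outlier in matched protein data, and 39 of the 40 deposited samples were used.

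The stretches of coding sequence that define the roles of the genes are given first, on the mouse assembly GRCm38 with the GENCODE M21 annotation and read 5′ to 3′ on the strand of the gene. App (ENSMUSG00000022892) lies at chr16:84949685-85173766 on the minus strand. Its amyloid-beta stretch is split between exon 16 (chr16:84965670-84965720) and exon 17 (chr16:84962794-84962868) of transcript App-206, and the capitals mark the codons of DAEF, the residues just after the Bace1 cut.

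App, amyloid-beta: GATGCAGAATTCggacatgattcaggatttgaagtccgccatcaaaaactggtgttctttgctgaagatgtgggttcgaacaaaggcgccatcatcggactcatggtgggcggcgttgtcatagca

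The 3 substrates share the YENPTY motif of the cytoplasmic tail, which binds adaptor proteins such as those of the Apba and Apbb families. Its codons are in capitals in 42 bases of the last exon of App (chr16:84955346-84955387), of Aplp1 (chr7:30435305-30435346, minus strand) and of Aplp2 (chr9:31150886-31150927, minus strand).
App: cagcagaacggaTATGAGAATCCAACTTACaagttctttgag
Aplp1: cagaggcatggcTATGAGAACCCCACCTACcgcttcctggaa
Aplp2: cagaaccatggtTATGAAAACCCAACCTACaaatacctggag

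Over these 42 bases, App shared 28 with Aplp1 and 30 with Aplp2, and Aplp1 shared 32 with Aplp2. The stretches are not identical, but how reads that match several genes were shared is not given in the sources used here. The 3 proteases that carry a catalytic motif are shown by it: DTGS of the aspartyl protease Bace1 (exon 2, chr9:45852891-45852926, plus strand), HExGH of the zinc protease Adam10 (exon 9, chr9:70754284-70754319, plus strand) and GLGD of the catalytic subunit Psen2 (exon 10, chr1:180228924-180228959, minus strand), each in capitals.
Bace1: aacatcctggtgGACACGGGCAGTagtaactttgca
Adam10: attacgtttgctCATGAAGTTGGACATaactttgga
Psen2: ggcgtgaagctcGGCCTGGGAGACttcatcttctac

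The remaining γ-secretase genes lie at chr1:172066013-172082795 (Ncstn, minus strand), chr3:95893969-95898288 (Aph1a, plus strand) and chr7:30561863-30563627 (Psenen, minus strand). Genes on the opposite strand overlap App, Bace1, Psen2, Ncstn, Aph1a and Psenen in the annotation, for example Copa at Ncstn and Car14 at Aph1a. Whether the counts used the strand is not given in the sources used here. Overlap was taken over whole gene spans, introns included, so whether reads of such partners were counted with the gene is not known.

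Summed estimated counts ranged from 15926014 to 27859547 per sample (median 19028778). Levels are given as CPM, the reads of a gene scaled to a common library size with TMM, a normalization to a reference sample. Neuronal markers were high in all samples: the summed level of 9 markers was 6279 to 9670.3 CPM, led by Snap25. Some libraries stood apart. Sample 31 (5xCHI at 30 min) had 2500.5 CPM of the 5 choroid plexus markers against 6.76 to 22.4 CPM in sham, sample 15 (1xCHI at 4 h) had 3733 CPM of the 6 meningeal markers against 611 to 942 CPM in sham, and sample 11 (5xCHI at 24 h) had the highest sums of the microglial, astrocytic, oligodendrocyte and OPC (oligodendrocyte precursor) markers and the lowest neuronal sum. Choroid plexus markers also reached 1293 CPM in sample 32, 853 CPM in sample 24, 405 CPM in sample 12 and 148 CPM in sample 29. Sample 10 (5xCHI at 4 h) came next to sample 11, with a microglial sum of 729 CPM, an astrocytic sum of 6516 CPM and a neuronal sum of 6760 CPM. In bulk tissue, fewer cells of a type and less RNA per cell cannot be told apart.

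Every gene of the set was well covered. App had 23755 to 48265 counts per sample, and Psen2, the least covered, had 177 to 384. The mean level of App lay above that of 99.8% of the 15224 tested features, and that of Psen2 above 37.1%. Levels of different genes were compared per kilobase of the median coding transcript. On this scale the substrates ranked App (509.9 CPM per kilobase), Aplp1 (437) and Aplp2 (148), far above the proteases. The γ-secretase subunits followed with 52.8 CPM per kilobase for Psenen, 30.0 for Aph1a, 19.9 for Ncstn and 7.25 for Psen2. Adam10 and Bace1 had 28.4 and 20.2 CPM per kilobase. Part of this order depends on the length used: with the joined length of all exons, Aplp1 came first (339 against 126 CPM per kilobase for App), while Psen2 stayed the lowest of the 9 (2.99).

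**Figure D1:**
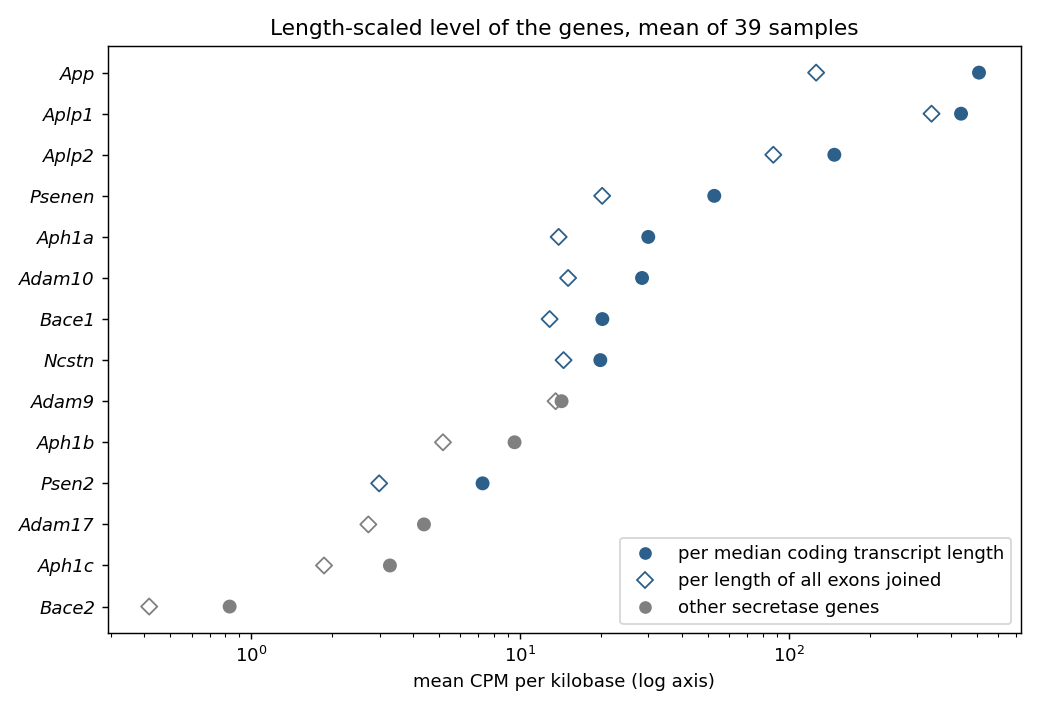
Mean CPM per kilobase over 39 samples (log axis) for the 9 genes (blue) and 5 other secretase genes (grey), by the length of the median coding transcript (circles) or of all exons joined (diamonds). The substrates App, Aplp1 and Aplp2 lie right of every protease gene by both lengths.

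Other genes of the same protease families were present beside the 9. Bace2, the paralog of Bace1, was low at 0.831 CPM per kilobase against 20.2 for Bace1. Aph1b and Aph1c are near copies of each other, and the split of reads between them (26.7 ± 3.16 and 9.71 ± 1.23 CPM, SD, n = 39) is uncertain. The α-secretase candidates Adam9 and Adam17 had 14.3 and 4.39 CPM per kilobase against 28.4 for Adam10.

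App in the sham-injured mice had 1651, 1715, 1805 and 1857 CPM in samples 6, 20, 35 and 39. For 1xCHI at 30 min, at 4 h and at 24 h it had 1283, 1392 and 1843 CPM, 1354, 1357 and 1779 CPM, and 1415, 1456, 1944 and 1763 CPM, in the order of the sample numbers given above. In each of these groups the samples numbered up to 18 were the low ones, below all sham values, and the samples numbered 26 or higher were within or above the sham range. At 24 h after 2xCHI the values were 1932, 1527 and 1785 CPM. For 3xCHI at 30 min, at 4 h and at 24 h they were 1408, 1652 and 1578 CPM, 1701 and 1496 CPM, and 1617, 1753, 1852 and 1709 CPM. Samples within a 3xCHI group spread less than those within a 1xCHI group, and all 3 groups overlapped sham, the 30 min group through sample 5 alone. At 24 h after 4xCHI App had 1949.8, 1630.2 and 1770.5 CPM, and for 5xCHI at 30 min, at 4 h and at 24 h it had 1689, 1487 and 1639 CPM, 1715, 1430.2 and 1655 CPM, and 1150.2, 1439, 1941 and 1918 CPM. The last of these groups held the lowest App value of all samples, in sample 11. Ordered by mean, the groups ran from 1783 ± 160.1 CPM (SD, n = 3) at 24 h after 4xCHI to 1497 ± 245 CPM (SD, n = 3) at 4 h after 1xCHI, and sham was second with 1757 ± 91.9 CPM (SD, n = 4). Neighbours in this order differed by at most 0.08 on the log2 scale, less than the within-group SD of 0.19.

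The human APP row of the table was at 0 in 36 of the 39 samples and at 1 in the other 3, although the mice carry a human APP transgene, whereas the human MAPT row held 128 to 1007 counts. Whether reads of the transgene were counted in the mouse App row was not tested.

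Aplp1 was the steadiest of the 9. Its values over all samples ran from 931 to 1094 CPM around a mean of 1024 (coefficient of variation 4.67%), and the sham samples had 979, 1080.1, 981 and 998 CPM. Its within-group SD of 0.07 on the log2 scale was below that of all but 1.29% of the 10353 features with a mean of at least 10 CPM. The group means lay between 967 ± 44.6 CPM (SD, n = 3) at 4 h after 1xCHI and 1060.2 ± 37.1 CPM (SD, n = 3) at 4 h after 5xCHI, and neighbours in their order were closer than that SD.

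Aplp2 had 527, 529, 578 and 579 CPM in sham. The 10 samples after 1xCHI had 402, 456 and 578 CPM as lowest, median and highest value, and 7 of them lay below all sham samples. Its group means ran from 561 ± 28.8 CPM (SD, n = 3) at 24 h after 4xCHI down to 475 ± 84.5 CPM (SD, n = 3) at 4 h after 1xCHI, the same ends as for App. All samples at 30 min after 3xCHI, at 30 min after 5xCHI and at 4 h after 5xCHI lay below sham. The last group did so narrowly, with sample 9 at 526.4 CPM against 526.6 CPM in sham sample 6. App and Aplp2 kept a steadier ratio to each other than App and Aplp1: the ratio of CPM was 3.19 ± 0.148 (SD, n = 39) for App over Aplp2, a coefficient of variation of 4.63%, against 14.4% for App over Aplp1. App made up 51.4 ± 2.71% (SD, n = 39) of the summed CPM of the 3 substrates, with 52.9 ± 1.16% (SD, n = 4) in sham.

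**Figure D2:**
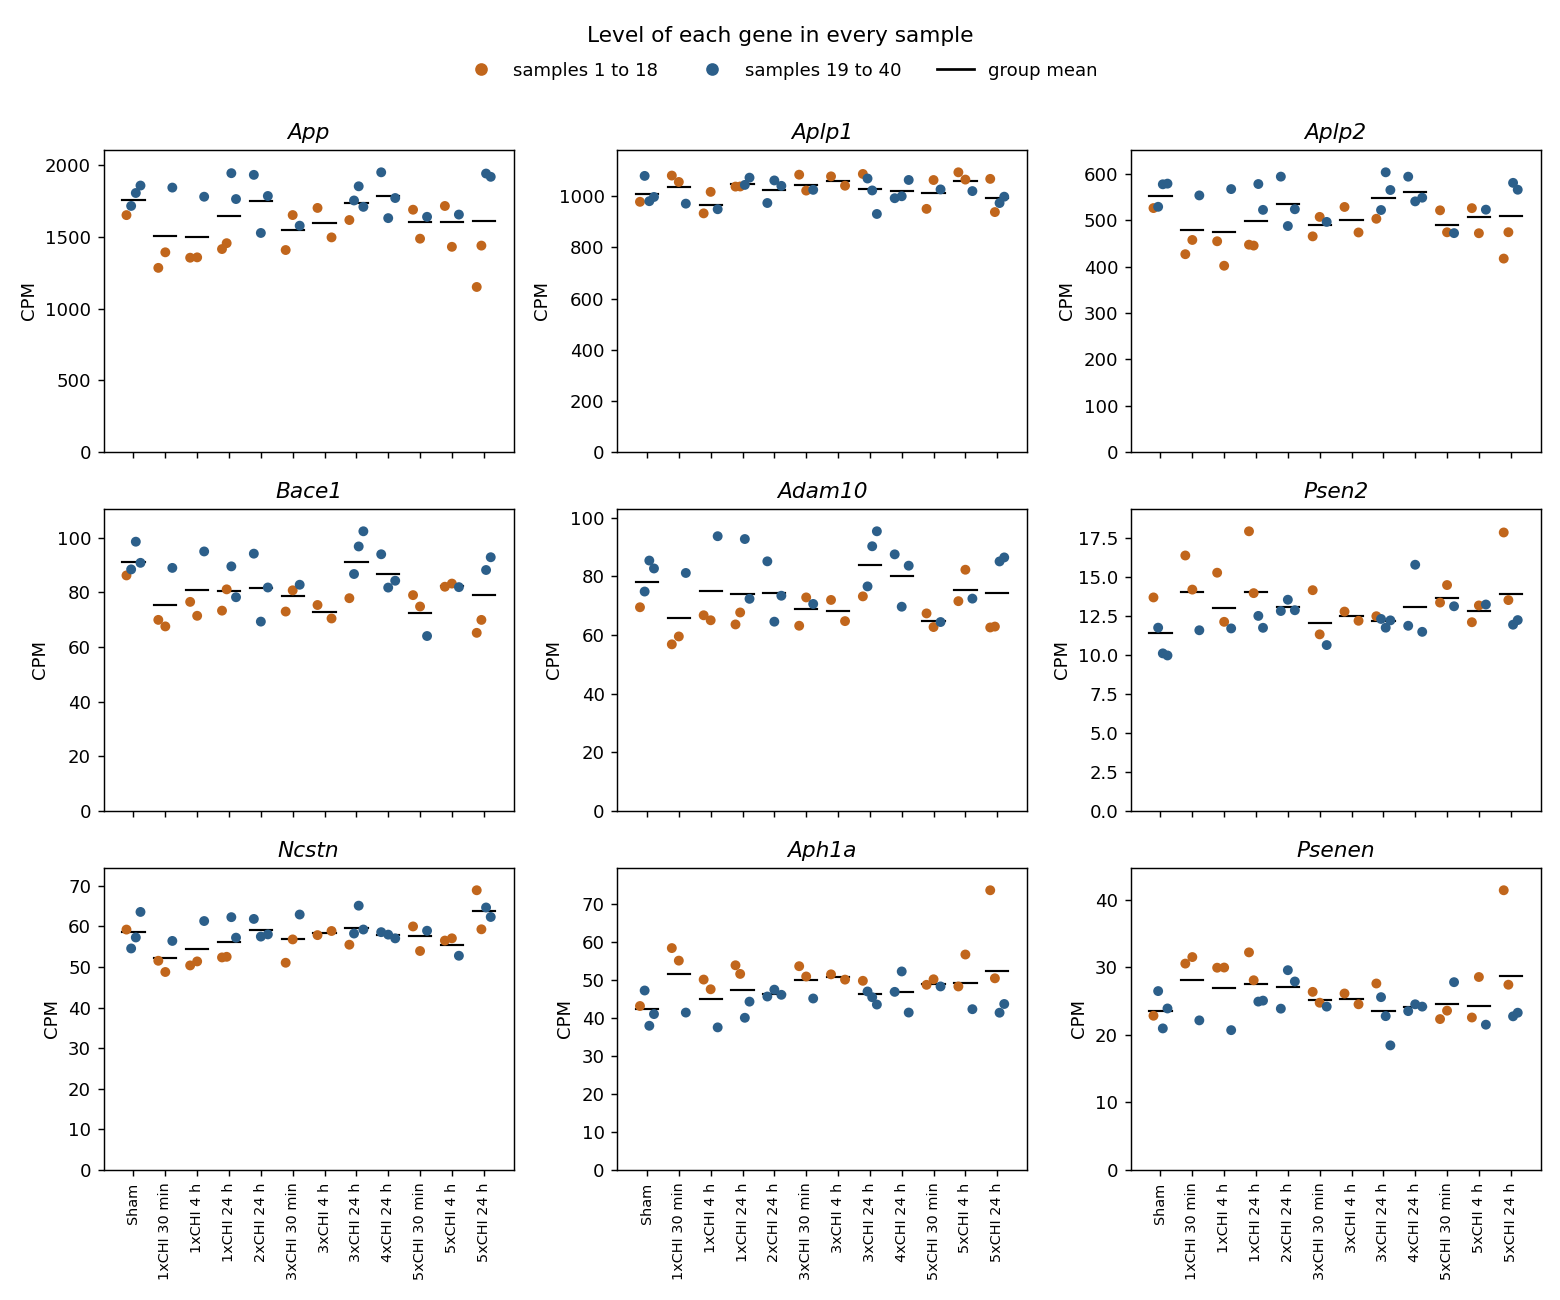
CPM of the 9 genes in each of the 39 samples (points), by injury and time group (x axis), with the group mean as a bar and the axis starting at 0. Orange points are samples 1 to 18 and blue points samples 19 to 40. After 1xCHI the orange points are low for App, Aplp2 and Adam10, mostly low for Bace1, and high for Psen2, Aph1a and Psenen.

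Bace1, which makes the first cut towards amyloid-beta, had 86.2, 88.5, 98.6 and 90.9 CPM in sham, the highest group mean with 91.0 ± 5.38 CPM (SD, n = 4), next to 91.0 ± 10.9 CPM (SD, n = 4) at 24 h after 3xCHI. For 1xCHI at 30 min, at 4 h and at 24 h it had 70.0, 67.6 and 89.0 CPM, 76.6, 71.5 and 95.0 CPM, and 73.3, 81.1, 89.6 and 78.3 CPM. Each of these groups overlapped sham through samples numbered above 18. At 24 h after 2xCHI the values were 94.2, 69.3 and 81.8 CPM, for 3xCHI at 30 min, at 4 h and at 24 h they were 73.0, 80.8 and 82.8 CPM, 75.4 and 70.5 CPM, and 77.9, 86.8, 96.9 and 102 CPM, and at 24 h after 4xCHI they were 94.0, 81.8 and 84.3 CPM. The highest value of all samples, in sample 38, was in the 3xCHI group at 24 h. For 5xCHI at 30 min, at 4 h and at 24 h Bace1 had 79.0, 74.9 and 64.1 CPM, 82.1, 83.3 and 82.0 CPM, and 65.2, 70.0, 88.2 and 92.9 CPM. The first of these groups had the lowest mean, 72.6 ± 7.73 CPM (SD, n = 3), and did not overlap the sham group, nor did 3xCHI at 30 min, 3xCHI at 4 h and 5xCHI at 4 h. Neighbours in the order of the 12 groups differed by at most 0.07 on the log2 scale, against a within-group SD of 0.16.

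Adam10, which cuts App within the amyloid-beta stretch, had 69.5, 74.8, 85.4 and 82.7 CPM in sham. Its means were highest at 24 h after 3xCHI, with 83.9 ± 10.7 CPM (SD, n = 4), and lowest at 30 min after 5xCHI, with 64.8 ± 2.35 CPM (SD, n = 3). There the samples had 67.4, 62.7 and 64.4 CPM and all lay below sham. Its extreme samples were 13 (56.8 CPM) and 38 (95.4 CPM). Bace1 and Adam10 varied together, and the ratio of their CPM spread less than either gene. The ratio was 1.11 ± 0.0653 (SD, n = 39), a coefficient of variation of 5.89% against 12.0% for Bace1 and 14.1% for Adam10. In sham it was 1.17 ± 0.0594 (SD, n = 4), and the other group means lay between 1.07 at 24 h after 5xCHI and 1.15 at 30 min after 1xCHI.

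Psen2, a catalytic subunit of γ-secretase, had 13.7, 11.7, 10.1 and 9.95 CPM in sham, the lowest group mean with 11.4 ± 1.74 CPM (SD, n = 4). For 1xCHI at 30 min, at 4 h and at 24 h it had 16.4, 14.2 and 11.6 CPM, 15.2, 12.1 and 11.7 CPM, and 17.9, 13.9, 12.5 and 11.7 CPM. Within sham and within each of these groups the samples numbered up to 18 were the high ones. After 2xCHI the values were 12.8, 13.5 and 12.8 CPM, and after 4xCHI they were 11.9, 15.8 and 11.5 CPM. The 9 samples after 3xCHI had 10.6, 12.2 and 14.1 CPM as lowest, median and highest value, and the 10 samples after 5xCHI had 11.9, 13.2 and 17.8 CPM. No injured sample lay below the sham range, and in each injury group some samples overlapped it.

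Aph1a, the scaffold subunit, had 43.2, 47.3, 38.0 and 41.1 CPM in sham, also the lowest group mean with 42.4 ± 3.91 CPM (SD, n = 4). The 10 samples after 1xCHI had 37.6, 48.9 and 58.5 CPM as lowest, median and highest value, the 9 after 3xCHI had 43.6, 49.9 and 53.7 CPM, and the 10 after 5xCHI had 41.5, 48.6 and 73.8 CPM. All samples at 4 h after 3xCHI and at 30 min after 5xCHI lay above sham. Its highest sample was 11, in the group 24 h after 5xCHI, where the others had 50.5, 41.5 and 43.8 CPM. Psenen, the smallest subunit, resembled Aph1a: sham had 22.8, 26.5, 21.0 and 23.9 CPM, and sample 11 had 41.4 CPM where the other samples at 24 h after 5xCHI had 27.4, 22.8 and 23.3 CPM. With sample 11 included, Psenen spread more across samples than the other 8 genes, with a coefficient of variation of 15.9%.

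Ncstn, the subunit that docks substrates, differed from the other subunits in its pattern. It had 59.2, 54.6, 57.3 and 63.6 CPM in sham and was lowest at 30 min after 1xCHI, with 51.5, 48.8 and 56.4 CPM. It was highest at 24 h after 5xCHI, with 68.9, 59.3, 64.7 and 62.3 CPM. The first of these groups overlapped sham through sample 27 alone, and the second overlapped it through samples 12 and 34. The highest group had 63.8 ± 4.06 CPM (SD, n = 4) and the next, 24 h after 3xCHI, had 59.5 ± 4.05 CPM (SD, n = 4). The step between them was 0.100 on the log2 scale against a within-group SD of 0.098, and all other neighbours were closer than the SD. For Adam10, Aplp2, Psen2, Aph1a and Psenen, no neighbours in the order of the groups differed by as much as the within-group SD.

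The injury and time groups were compared with edgeR's quasi-likelihood test on all 15224 features, with calls made where the p adjusted by Benjamini-Hochberg was under 0.05. The test of any difference among the 12 groups called 0 of the 9 genes, against 0.0131% of all features. At an unadjusted p under 0.05 it passed 0 of the 9, against 7.02% of features. Adjusted p-values lay between 0.801 (Ncstn) and 0.945 (Aplp1). Across all 18 comparisons, 0 of 162 gene tests were called with edgeR and 0 with DESeq2, and 10 passed an unadjusted p under 0.05 with each tool. The study's methods treat each sample as the cortex of a separate mouse, and the p-values measure the spread between these samples.

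The first comparison set 1xCHI against sham at each time. At 30 min, 0 of the 9 genes were called, against 0% of features. Bace1 and Ncstn passed an unadjusted p under 0.05, against 19.7% of features, a share close to theirs of the 9. The log2 difference of Bace1 was -0.27 ± 0.12 (SE; adjusted p = 0.235), with a 95% interval of -0.52 to -0.02. For Ncstn it was -0.17 ± 0.08 (adjusted p = 0.253). Psen2 and Aph1a had the largest differences upwards, 0.31 ± 0.15 and 0.29 ± 0.15, and neither passed. App had -0.22 ± 0.15 (interval -0.52 to 0.07).

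This comparison depended on a single library. Without sample 27, whose values lay within the sham range for all of the genes but Aplp1, Bace1 (-0.40 ± 0.13, adjusted p = 0.0330) and Aph1a (0.42 ± 0.16, adjusted p = 0.0475) were called in edgeR. Those 2 of 9 stood against 23.6% of all features called in the same fit, so the share of the 9 was at the background. At an unadjusted p under 0.05, 8 of the 9 passed without sample 27, all but Aplp1, against 39.9% of features. App had -0.39 ± 0.16 (adjusted p = 0.0644), Aplp2 -0.32 ± 0.13, Adam10 -0.42 ± 0.16 and Psenen 0.40 ± 0.18, each over 1.5 times its value with all 3 samples, and none of these 4 was called. Samples 13 and 14 had length indices (defined with the co-variation of the genes) of 0.49 and 0.31, and sample 27 had -0.21. The summed level of 5 blood markers was 513, 503 and 86.0 CPM in samples 13, 14 and 27, against 172 to 275 CPM in sham, with sample 13 the highest and sample 27 the lowest of all samples. Sample 13 also had the lowest astrocytic sum, 2931 CPM against 3902 to 5023 CPM in sham. The part of these differences in the result was not tested. With the length index as a covariate, an alternative chosen after seeing the data, Bace1 had -0.02 ± 0.06 and Aph1a -0.03 ± 0.08, neither called.

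At 4 h after 1xCHI, 0 of the 9 genes were called or passed the unadjusted threshold, against 0% and 10.5% of features. App had -0.23 ± 0.15 and Aplp2 -0.22 ± 0.12, the largest differences at this time. Without sample 36 they had -0.37 ± 0.16 and -0.37 ± 0.12 (adjusted p = 0.122 and 0.0667 in edgeR), and 606 features (3.98%) were called, none of them among the 9. App, Aplp2, Bace1 and Ncstn passed the unadjusted threshold in that fit, against 30% of features. Without sample 15, the library with meningeal markers, App had -0.16 ± 0.17 and Aplp2 -0.19 ± 0.14. At 24 h after 1xCHI, 0 were called and Psen2 alone passed the unadjusted threshold, against 0% and 6.02% of features. Psen2 had a log2 difference of 0.30 ± 0.14 (adjusted p = 0.703). It was 0.12 ± 0.10 with the length index as a covariate and 0.23 ± 0.12 with the division between samples 18 and 19, both no longer past the unadjusted threshold, and 0.28 ± 0.12 with sample number, which passed. The sham group of 4 was shared by these comparisons.

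The groups after 3xCHI and 5xCHI were compared with those taken 24 h after 2xCHI and 4xCHI, which stand for the state before the last injury. These reference groups held no sample numbered up to 18. All samples at 4 h after 3xCHI were numbered up to 18, so injury and sample number cannot be told apart between that group and its reference. The other groups after 3xCHI and 5xCHI held 1 or 2 such samples each, so their comparisons were unbalanced in sample number too. After 3xCHI, 0 of the 9 genes were called and 0 passed the unadjusted threshold at 30 min, 4 h or 24 h, against 0% called and 1.88%, 2% and 4.57% of features at an unadjusted p under 0.05. The largest log2 differences at these times were -0.18 ± 0.15 for App at 30 min, 0.17 ± 0.15 for Adam10 at 24 h and -0.20 ± 0.17 for Psenen at 24 h. After 5xCHI, 0 were called and 0 passed at the 3 times, against 0% called and 6.36%, 5.33% and 6.44% of features unadjusted. Among these comparisons after 3xCHI and 5xCHI, both proteases that cut App first had their largest differences at 30 min after 5xCHI. Adam10 had -0.31 ± 0.16 (95% interval -0.63 to 0.02) and Bace1 had -0.25 ± 0.13 (interval -0.52 to 0.01), each with adjusted p = 0.797. Without sample 31, the library with the highest choroid plexus markers, Bace1 had -0.17 ± 0.15 and Adam10 -0.30 ± 0.18. Sample 24 of the 4xCHI group had 853 CPM of these markers and stayed in that fit.

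At 24 h after 5xCHI, Psenen had a log2 difference of 0.25 ± 0.17, Aph1a of 0.16 ± 0.15 and App of -0.15 ± 0.14. All 3 rested on sample 11: without it they were 0.02 ± 0.15, -0.05 ± 0.13 and -0.01 ± 0.14. Ncstn, with 0.14 ± 0.08, kept 0.10 ± 0.08 without that sample. With a covariate its difference was larger and passed the unadjusted threshold: 0.19 ± 0.08 with the division between samples 18 and 19, 0.17 ± 0.08 with sample number and 0.16 ± 0.07 with the length index, with adjusted p-values of 0.952, 0.902 and 0.473 in edgeR. In the same fits 4.96%, 5.42% and 9.7% of features passed. Of the other 8 genes, Aplp2 alone passed, with the length index (-0.10 ± 0.05, adjusted p = 0.512).

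The number of injuries was compared with sham over the mean of the time points. After 1xCHI, 0 of the 9 were called, and Aplp2, Bace1 and Psen2 passed the unadjusted threshold, against 0% and 16.7% of features. Aplp2 had -0.19 ± 0.09, Bace1 -0.20 ± 0.09 and Psen2 0.27 ± 0.12, with adjusted p-values of 0.287, 0.288 and 0.281 in edgeR. Without sample 15 none of the 3 passed the unadjusted threshold, with -0.18 ± 0.09, -0.19 ± 0.10 and 0.22 ± 0.12, against 13% of features. Without sample 27 or without sample 36, 6 of the 9 passed it (App, Ncstn and Psenen besides these 3), against 29.7% and 30.8% of features, and 0 were called. After 2xCHI none was called or passed, against 0% and 4.46% of features, and the same held after 3xCHI (0% and 4.89%) and after 4xCHI (0% and 1.62%). After 5xCHI, 0 were called, and Bace1 and Aph1a passed unadjusted, against 0% and 10.3% of features. Bace1 had -0.22 ± 0.09 (adjusted p = 0.471) and Aph1a 0.24 ± 0.11 (adjusted p = 0.478). Bace1 without sample 31 had -0.20 ± 0.10 and Aph1a without sample 11 had 0.17 ± 0.09, both no longer past the unadjusted threshold. Bace1 had a negative difference for every number of injuries, from -0.07 after 4xCHI to -0.22 after 5xCHI, and 7 of 10 samples after 1xCHI and 8 of 10 after 5xCHI lay below all 4 sham samples. These comparisons share the sham group, so their agreement in sign is not independent. The share of all features with as many samples below sham is not given here.

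**Figure D3:**
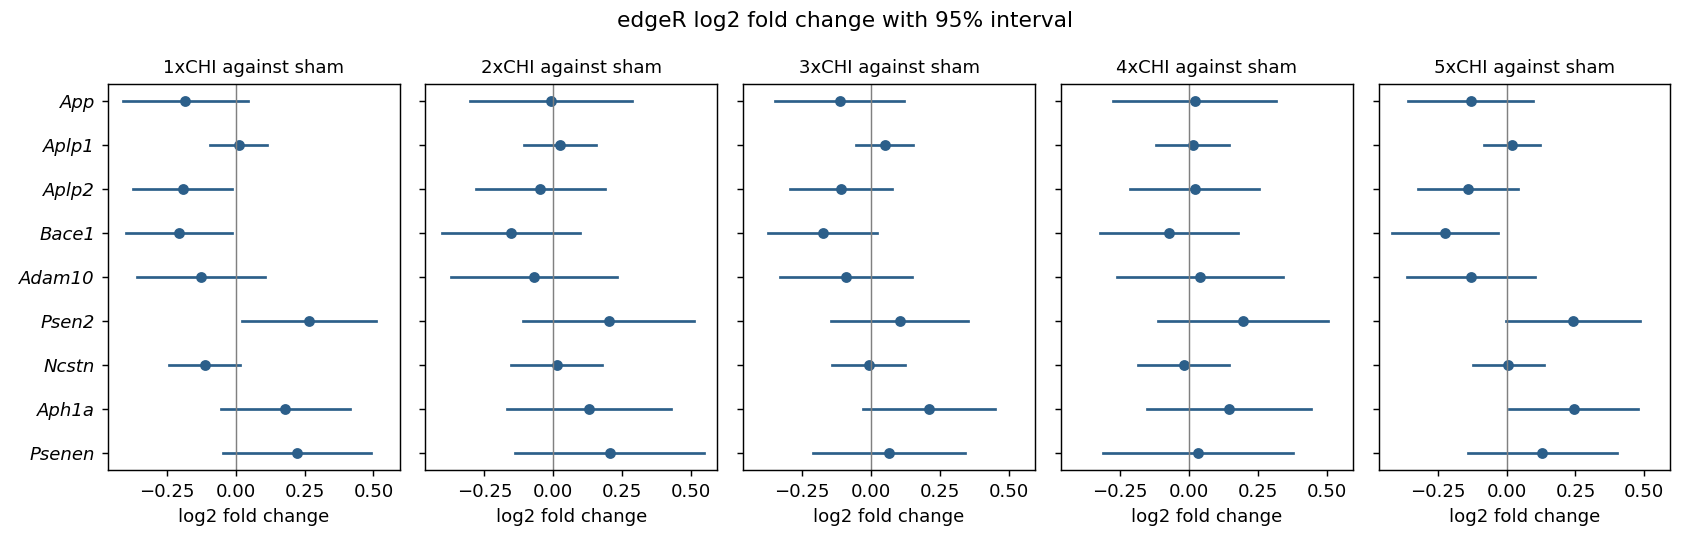
Log2 fold change (x axis) of the 9 genes in each number of injuries against sham in edgeR, with points for the estimate and lines for the 95% interval. The intervals for Aplp1 and Ncstn are the narrowest, and those of Aplp2, Bace1 and Psen2 after 1xCHI and of Bace1 and Aph1a after 5xCHI leave out 0.

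Sham and injured samples were spread unevenly over the sample numbers: 3 of the 4 sham samples are numbered above 18, and 6 of the 10 samples each after 1xCHI and 5xCHI are numbered up to 18. The division between samples 18 and 19 is not a batch named in the labels and was known from earlier results of these data. Within samples 19 to 40, with 3 sham samples, the log2 ratio of mean CPM after 1xCHI to sham was -0.07 for Bace1, -0.02 for Aplp2 and 0.16 for Psen2 (4 injured samples). After 5xCHI it was -0.18 for Bace1 and 0.06 for Aph1a (4 injured samples). Without sample 31, the library with the highest choroid plexus markers, these were -0.08 and 0.01. Without sample 32, which had 1293 CPM of these markers, they were -0.18 and 0.08. The values after 1xCHI ranged from -0.11 to -0.02 for Bace1, -0.04 to 0.01 for Aplp2 and 0.14 to 0.18 for Psen2 when 1 injured sample was left out, checks chosen after seeing the data. Samples 1 to 18 held 1 sham sample, too few for the same comparison. With the division as a covariate in the edgeR fit, Bace1 had -0.14 ± 0.08 after 1xCHI and -0.16 ± 0.08 after 5xCHI, Psen2 had 0.18 ± 0.10 and Aplp2 -0.13 ± 0.07 after 1xCHI, and Aph1a had 0.13 ± 0.09 after 5xCHI. None of these 5 differences passed the unadjusted threshold in that fit.

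Time after injury was compared over 1xCHI, 3xCHI and 5xCHI together. At 30 min against 24 h, 0 of the 9 genes were called against 0.145% of features, and Adam10 and Ncstn passed the unadjusted threshold against 10.5% of features. Adam10 had a log2 difference of -0.22 ± 0.09 (interval -0.39 to -0.04, adjusted p = 0.452) and Ncstn of -0.10 ± 0.05 (adjusted p = 0.464). With sample number as a covariate Adam10 had -0.12 ± 0.07 and Ncstn -0.07 ± 0.05, neither past the unadjusted threshold, and with the length index they had -0.12 ± 0.04 and -0.08 ± 0.04, where Adam10 passed the unadjusted threshold (adjusted p = 0.355) and Ncstn did not. Ncstn without sample 11 had -0.09 ± 0.05 and did not pass. The features called here included the immediate early genes Fosb, Fos and Npas4, which neurons switch on within minutes of activity and which were named after their values were seen. At 4 h against 24 h, 0 were called and 0 passed, against 0.00657% and 3.44% of features, and 8 of the 9 log2 differences were negative, none beyond -0.09. The linear trend over 1 to 5 injuries at 24 h called 0 and passed 0 of the 9, against 0% and 7.2% of features. Ncstn had the steepest slope, 0.034 ± 0.017 per injury on the log2 scale (interval -0.0014 to 0.069).

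The 95% intervals of the main fit give, for each test taken alone, the range around its difference. They do not cover the alternatives: with the length index as a covariate, a difference moved by up to 0.38. Over the 17 comparisons with a direction, the 95% intervals of Aplp1 stayed within -0.19 to 0.20 on the log2 scale, those of Ncstn within -0.33 to 0.31 and those of App within -0.53 to 0.32. The widest were those of Adam10, Psen2 and Psenen, which reached -0.63, 0.61 and 0.60.

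Across the 39 samples the genes fell into blocks. Within groups, that is on residuals of log2 CPM from the group means, App, Aplp2, Bace1 and Adam10 varied together, with Pearson's r between 0.81 and 0.94 over their 6 pairs. Psen2, Aph1a and Psenen did so too, with r between 0.62 and 0.87 over 3 pairs. Between these 4 and these 3 genes, all 12 values of r were negative, from -0.86 to -0.57. The subunits Psen2, Aph1a and Psenen of γ-secretase thus varied against App, Aplp2 and the first-cutting proteases. Aplp1, a substrate too, had r = 0.22, 0.45 and 0.64 with Psen2, Aph1a and Psenen. Ncstn, a subunit of the same complex, had r = 0.61 with Adam10 and r = -0.33 with Aph1a. The values of Ncstn rested in part on samples 11 and 13: in log2 CPM, its r was 0.44 with App, -0.21 with Aph1a and -0.23 with Psenen over 39 samples, and 0.73, -0.53 and -0.54 without these samples, so that it lay nearer to the first block. The blocks were also present in log2 CPM without removal of the group means, where the 12 values of r between blocks ran from -0.80 to -0.59, and without samples 11 and 13 (-0.73 to -0.51). These correlations are descriptions over 39 samples that share a normalization, and genes of 1 sample share its library.

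The blocks followed transcript length and the sample number. The median coding transcripts of App, Aplp2, Bace1, Adam10 and Ncstn have 3220, 3483, 4041, 2608 and 2901 bases, and those of Psen2, Aph1a and Psenen have 1786, 1601 and 488 bases; that of Aplp1 has 2343. App had 1483 ± 158 CPM (SD, n = 18) in samples 1 to 18 and 1778 ± 125 CPM (SD, n = 21) in samples 19 to 40, while Aph1a had 52.5 ± 6.36 CPM and 44.2 ± 3.63 CPM. A length index was computed for each sample as the median log2 CPM deviation of the 10% of tested genes with the shortest transcripts less that of the 10% with the longest. It ran from -0.35 in sample 38 to 0.50 in sample 11, and from -0.08 to 0.50 in samples 1 to 18 against -0.35 to 0.19 in samples 19 to 40. With this index log2 CPM had a Pearson's r of -0.87 for App, -0.90 for Aplp2, -0.87 for Bace1 and -0.87 for Adam10. For Psen2, Aph1a and Psenen it was 0.75, 0.84 and 0.87. Aplp1 (0.48) and Ncstn (-0.48) followed it less. The 9 genes are not alone in this: 25.6% of all tested features had r above 0.5 with the index and 24.0% had r below -0.5. The sham group had the lowest mean index of the 12 groups, -0.19, and 30 min after 1xCHI the highest, 0.20.

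**Figure D4:**
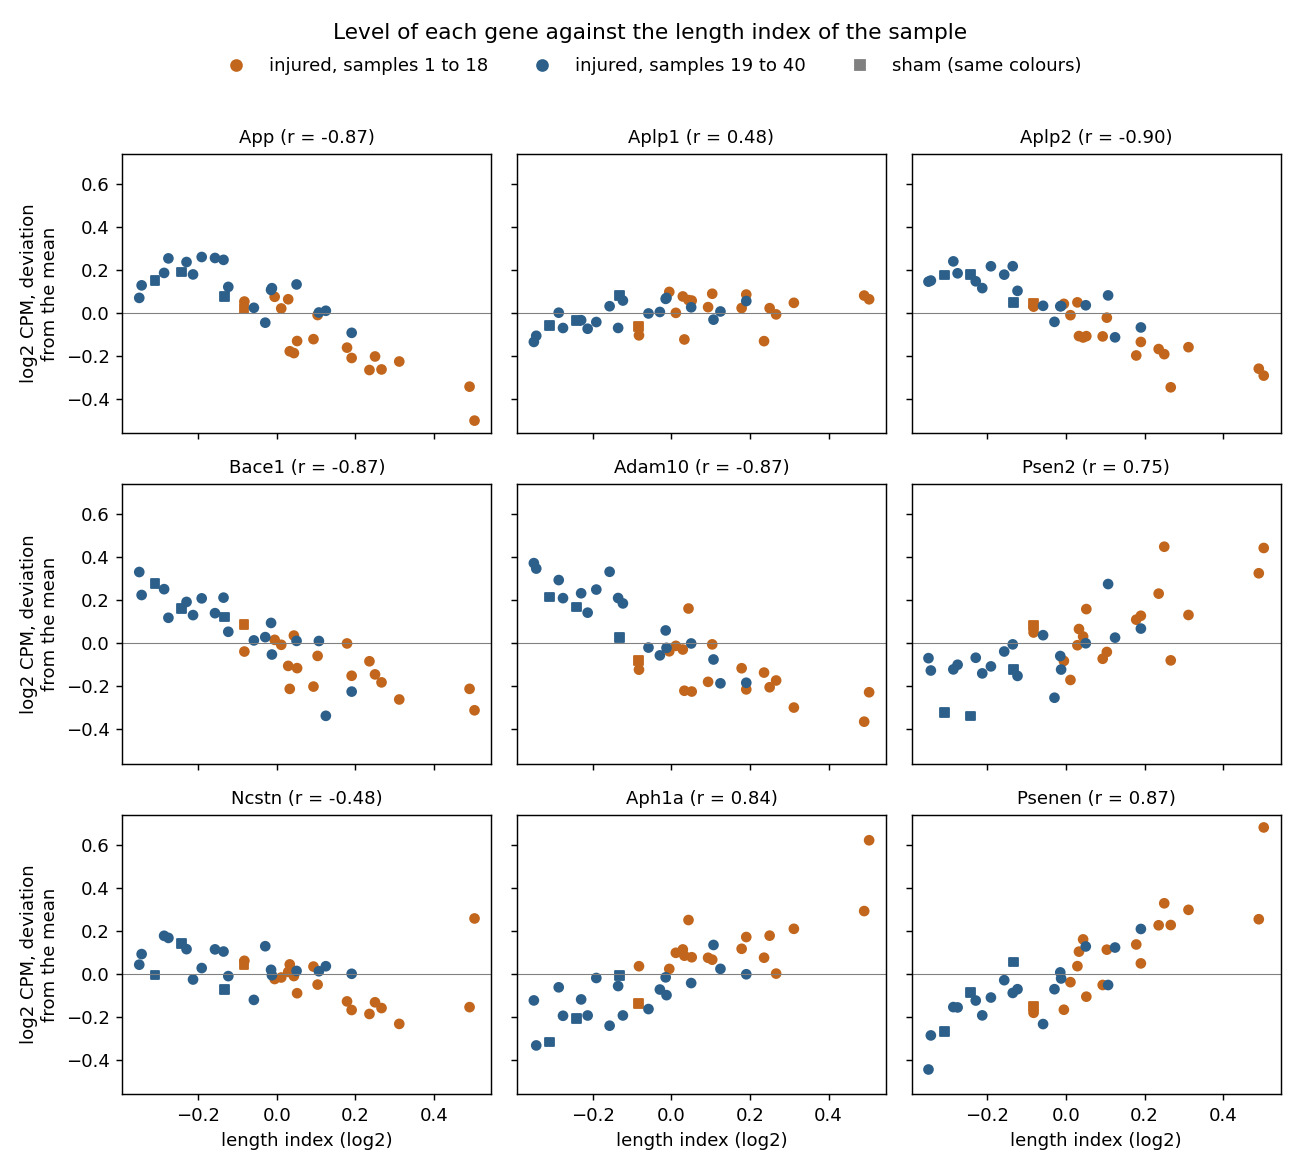
Deviation of log2 CPM from its mean (y axis) against the length index of the sample (x axis, log2) for the 9 genes over 39 samples, with squares for sham, orange for samples 1 to 18 and blue for samples 19 to 40. App, Aplp2, Bace1 and Adam10 slope down, Psen2, Aph1a and Psenen slope up, and Aplp1 is nearly flat.

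Removal of the length index together with the group means, an adjustment chosen after the blocks had been seen, changed them. The r among App, Aplp2, Bace1 and Adam10 then ran from -0.03 to 0.63, and only 4 of the 12 values between the blocks were negative. App and Aplp2 had the highest of the 36 values, and Adam10 and Psenen, opposed before, then had r = 0.54. In the edgeR fit with the index as a covariate, 0 of the 162 tests of the 9 genes were called, and the direction of the log2 difference changed in 54 of 153. Bace1 after 5xCHI against sham went from -0.22 ± 0.09 to -0.09 ± 0.05, and Psen2 after 1xCHI went from 0.27 ± 0.12 to 0.06 ± 0.09. At 30 min after 5xCHI, Adam10 and Bace1 had -0.22 ± 0.07 and -0.19 ± 0.06 in that fit, against -0.15 ± 0.13 and -0.15 ± 0.12 with sample number and -0.13 ± 0.13 and -0.13 ± 0.12 with the division between samples 18 and 19. Both passed the unadjusted threshold with the index, against 10.5% of features, and neither passed with the other covariates. Index and injury cannot be fully told apart in that fit, since the groups differed in the index, and what moved the index was not tested. The summed neuronal markers had r = 0.85 with App, -0.76 with Aph1a and 0.53 with Bace1 over the 39 samples, and the summed oligodendrocyte markers had r = -0.60 with App and 0.58 with Aph1a. Ncstn had r = 0.60 with the astrocytic and 0.44 with the microglial sum, and Aph1a had 0.49 with the microglial sum. The part of cell composition in these levels was not tested.

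**Figure D5:**
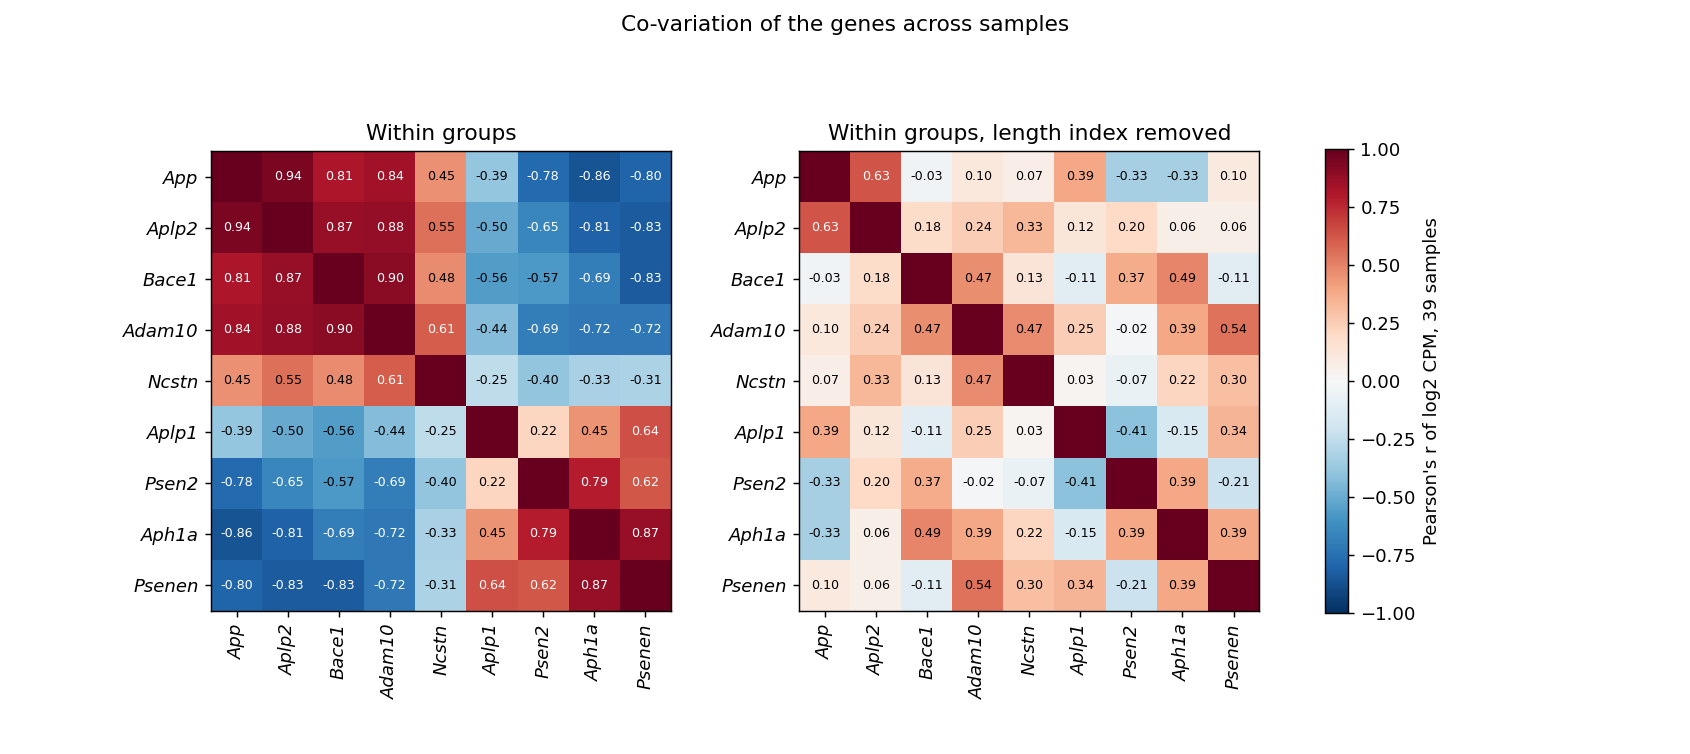
Pearson's r of log2 CPM between the 9 genes over 39 samples, with group means removed (left) and with the length index removed as well (right), on a colour scale from -1 (blue) to 1 (red). The blocks of opposed sign in the left matrix are weak or absent in the right one.

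The genes whose log2 CPM was most like that of each member were found among all 15224 tested features. For App they were Plcb1 (r = 0.96) and Hspa12a (r = 0.96), for Aplp2 Fam20b (r = 0.97) and Socs5 (r = 0.96), and for Bace1 Lonrf2 (r = 0.92) and Nexmif (r = 0.92). For Adam10 they were Kpnb1 (r = 0.94) and Nexmif (r = 0.94), so that Nexmif was near both Bace1 and Adam10. For Psenen they were Rps6 (r = 0.90) and Rps27a (r = 0.89), ribosomal protein genes, and for Aph1a Fbxo2 (r = 0.91) and Rps4x (r = 0.91), of which Rps4x is one too. Psen2 was nearest to Selenom (r = 0.82) and Glrx5 (r = 0.81). Aplp1 and Ncstn had no gene as close, with Actg1 (r = 0.71) and Mlf2 (r = 0.70) for Aplp1 and Capza2 (r = 0.78) for Ncstn. The values are over 39 samples that share the length index and are given as a description.

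The pathway around the 9 genes was followed in 5 lists. None of their 56 genes was called in any of the 18 comparisons. For 4 of the lists the comparison with the most members at an unadjusted p under 0.05 is given, chosen after the values were seen, and leaving out libraries here was an alternative chosen after seeing the data. The 6 other secretase genes had 3 at an unadjusted p under 0.05 at 30 min after 1xCHI, 1 higher and 2 lower, against 19.7% of features, with a median log2 difference of -0.17. In that comparison without sample 27, 4 passed, against 39.9% of features, and 1 was called, where 23.6% of features were called. With the length index as a covariate 1 was higher and 2 were lower, against 6.88% of features, with a median of -0.09. The smallest p-values in the test of any difference went to Bace2, a paralog of Bace1, and Aph1c, with adjusted p = 0.605 and 0.783 in edgeR. Bace2 ran from 1.49 to 4.94 CPM. Among 18 genes of App adaptors and trafficking, 5 passed the unadjusted threshold after 1xCHI over the times, 1 higher and 4 lower, against 16.7% of features, with a median of -0.15. Without sample 36, 2 passed higher and 11 lower, against 30.8% of features, and 1 was called, against 0.781%. Without sample 15, 3 passed, against 13%. With the length index as a covariate 1 passed, against 5.34% of features, with a median of 0.01. In this list the smallest p-values in the test of any difference went to Apbb1, an adaptor that binds the YENPTY motif (382 ± 12.2 CPM in sham, SD, n = 4, and 332 CPM in its lowest group, 4 h after 1xCHI), and to Apba3 (adjusted p = 0.672).

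Of the 10 amyloid-beta degrading enzymes, 4 passed the unadjusted threshold in the trend over injuries at 24 h, all upwards, against 7.2% of features, with a median slope of 0.04. Without sample 11, 1 of the 10 passed, against 7.75% of features, with a median slope of 0.02. With the length index as a covariate 4 passed, all upwards, against 12.9% of features. Cathepsin D (Ctsd), a lysosomal protease, and Mmp2 had the smallest p-values of the list in the test of any difference. Ctsd had 264 ± 7.12 CPM (SD, n = 4) in sham and a mean of 543 CPM at 24 h after 5xCHI, where sample 11 reached 1319 CPM and without which the mean was 285 CPM (adjusted p = 0.639). Among 16 substrates of Bace1 and γ-secretase, 4 passed unadjusted at 30 min after 1xCHI, all lower, against 19.7% of features, with a median of -0.34. Without sample 27, 12 of them passed, all lower, and 6 were called, against 39.9% and 23.6% of features. With the length index as a covariate, 1 was higher and 1 lower at the unadjusted threshold, against 6.88% of features, and the median was 0.02. Chl1, a neural adhesion molecule cut by Bace1, came closest to a call in the test of any difference (adjusted p = 0.299). It had 119 ± 11.5 CPM (SD, n = 4) in sham, 131 CPM as the mean at 4 h after 1xCHI and 87.1 CPM at 30 min after 5xCHI. Sez6, another Bace1 substrate, had group means from 100.1 CPM at 24 h to 142 CPM at 4 h after 5xCHI (adjusted p = 0.588). Of 6 targets of Notch, which γ-secretase releases from the membrane, none passed an unadjusted p under 0.05 in the test of any difference, and Nrarp and Hes1 had the smallest p-values (adjusted p = 0.817 and 0.867). The median log2 difference over all tested features lay between -0.01 and 0.02 in every comparison with a direction.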

How the data were processed

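RNA was measured in 40 samples of left somatomotor cortex, of which 39 were used; the sample numbers follow the labels. Per the study's methods a sequencing company aligned the reads and made the count matrix, and the deposited table holds estimated counts (4.46% of values are not whole) of 55536 mouse features and 3 human genes, with no normalization; the aligner and strand setting are not given in the sources used here. Counts were rounded to whole numbers. A feature was kept when at most 4 of the 39 samples had a count under 10, which left 15224.

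Differential expression was tested in R (4.3.3) with edgeR's quasi-likelihood test (4.0.16, limma 3.58.1) on TMM-scaled libraries, with 1 mean for each of the 12 groups and no covariate. P-values were adjusted by Benjamini-Hochberg over all kept features with a threshold of 0.05, and 95% intervals came from the fitted SE. CPM used TMM-scaled library sizes, and log2 values in correlations were log2(CPM + 1). The fits were tested on simulated data. DESeq2 (1.42.0), other scalings and filters, covariates, samples and each replicate left out were alternatives. The length index was added after seeing the data. The 9 genes and the gene lists were chosen with earlier results of these data known, and the named genes of a list are the 2 with the smallest p in the test of any difference. Nearest genes are the 2 with the highest Pearson's r. Some genes that these rules name are not reported here. All pairs of samples within a group (46) differed by more than counting noise (chi-square per gene at least 6.85). Coding sequences were read from the GRCm38 genome by GENCODE M21, which held 55450 of the 55539 identifiers. Depth ranged from 15926014 to 27859547 counts per sample. Promoters and protein sequences were not used here.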

Additional observations from a re-analysis of the deposited data

How the results depend on the processing

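Every alternative called 0 of the 9 genes in every comparison, except that leaving out replicates gave 0 to 2 genes called at 30 min after 1xCHI: without sample 27, 2 genes (Bace1 and Aph1a) were called. At an unadjusted p under 0.05, the other scalings, filters, covariates, samples and tools passed 7 to 16 gene tests, against 10, and leaving out 1 sample passed 2 (without sample 35) to 22 (without sample 27 or 36). DESeq2 and scaling by the ratio of medians changed the sign of 0 of 153 log2 differences, library size scaling and no filter of 4 each, filterByExpr of 3, and all 40 samples or a fit of only the compared groups of 2 each, all below 0.04 in size. The covariates changed more signs: sample number 33, the division between samples 18 and 19 44, and the length index 54. Of 108 group means, 1 moved by over 1 SD with library size scaling, 4 with all 40 samples and 0 to 2 when replicates were left out (2 without sample 11: Aph1a and Psenen at 24 h after 5xCHI). Of 36 pairs of genes, 20 had a negative Pearson's r, 20 on residuals from group means, 19 with the division removed and 10 with the length index removed. The cause of these shifts was not tested. Over all features DESeq2 called 202 against 2 in the test of any difference, 52 against 22 at 30 min against 24 h and 28 against 0 at 30 min after 1xCHI, and without sample 36 edgeR called 606 against 0 at 4 h after 1xCHI, none of them among the 9 genes. No paired analysis was possible because the groups share no replicate numbers. With 2 to 4 samples a group, the 95% intervals limit what could be seen; no fit at lower depth was made.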
